A study of Carassius gibelio with 4 samples.

Results

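Gibel carp (Carassius gibelio) is a cyprinid fish that is farmed for food in East Asia. The data describe how the liver transcripts of 1 strain, called F in the labels, differed between a rapeseed meal diet and a fishmeal diet. The members are the gene IDs whose mean level in strain A on fishmeal, strain A on rapeseed and strain F on rapeseed was 100 or more, which leaves 1011 of 56011 IDs. The level was read from the values as FPKM, fragments per kilobase of transcript scaled to the size of the library. The strain F fishmeal library was kept out of this limit because it lists far more IDs at 0 than the others.

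The series holds 4 liver libraries, 1 for each combination of strain A or F with a fishmeal or a rapeseed meal diet. Livers were sampled 8 hours after the last feeding. The labels give no age, sex, number of fish per library or composition of the diets. With 1 library per group a difference has no replicate check, so folds are described by size, with no p-value. The IDs are of the kind c33686_g1, with no gene name beside them, and 0 of them matched the gene table for this species, so no function, liver marker or other cell type could be assigned to any of them.

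The liver makes most of the proteins of the blood plasma, clears and stores nutrients after a meal, and adjusts the synthesis of glucose, lipids and bile acids to the diet. Fishmeal is rich in animal protein and in the long-chain fatty acids and cholesterol of fish. Rapeseed meal is a plant protein source that contains glucosinolates, phytate and fibre, and it contains plant sterols in place of cholesterol.

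In the strain F fishmeal library 36996 of 56011 IDs were listed at 0, against 8172 to 11105 in the others. Among the 1011 members, 18 were listed at 0 in that library, or 1.78%, against 66.1% of all IDs. The members held 73.7% of the summed level of the strain F fishmeal library and 79.9% of its rapeseed counterpart, and 79.4% and 84.7% in strain A. Their median level in strain F was 157 FPKM on fishmeal (quartiles 83.8 and 417) and 251 FPKM on rapeseed (quartiles 148 and 638). In strain F on fishmeal, where the limit was not set, 696 of the 1011 members stood at 100 FPKM or more, 297 lay between 0 and 100 and 18 were listed at 0. The number of reads behind a value is unknown, so no counting interval can be given. The limit itself lies in a dense part of the distribution. c33191_g2, just inside at a mean of 100.1 FPKM, had 90.0 FPKM with fishmeal and 95.9 with rapeseed in strain F. c31314_g1, just outside at 99.99, had 48.2 and 98.9 FPKM.

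Most members stood higher on rapeseed on the deposited scale, by an amount close to the difference in scale between the libraries. The fold, a difference of log2(value + 1), was above 0 in 921 of 1011 members, with a median of 0.68 and quartiles of 0.409 and 0.995. Over all 56011 IDs the median was 0.74, and over the 5589 IDs of level 10 to 100 it was 0.45. The deposited values were read as FPKM multiplied by 1 factor per library, which was inferred from the steps between the values. The factor was 1.07 for strain F on rapeseed and 0.705 for strain F on fishmeal. These factors alone add about 0.60 to a log2 fold where both values are well above 1. With them divided out the median over the members was 0.08 and 581 members were above 0.

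By the rule of at least 2-fold, 250 members were higher and 13 lower on rapeseed in strain F. That is 24.7% and 1.29% of the members, against 40.2% and 8.86% of all IDs, which include the many listed at 0 on fishmeal. Among the IDs of level 10 to 100 the shares were 26.6% and 4.08%. The share of higher members was thus below that of both, and so was the share of lower members. With the factors divided out 79 members were higher and 34 lower, or 7.81% and 3.36% of the members. The shares were then 36.2% higher and 13.2% lower over all IDs, and 15.6% and 12.1% at level 10 to 100. Dividing the factors out raises no fold in strain F, so it can only remove higher calls and add lower ones. With log2(value + 1) the shift is close to 0.60 for values well above 1 and smaller near 0. The median over all IDs went from 0.74 to 0.59. With each library divided by its own summed level the split was 84 and 30. The excess of higher over lower members was smaller on both of these scales, and its sign was the same on all 3.

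**Figure D1:**
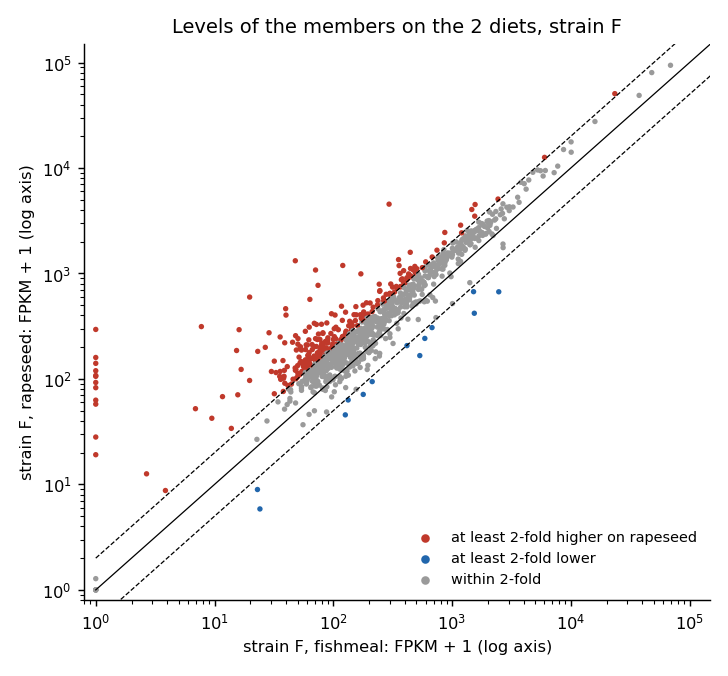
Level of each of the 1011 members in strain F on fishmeal (horizontal, FPKM + 1, log axis) and on rapeseed (vertical, FPKM + 1, log axis), 1 point per ID, with the line of equal level and dashed lines at 2-fold. The 250 red points lie above the upper dashed line, the 13 blue points below the lower one, and the 18 members listed at 0 on fishmeal stand at the left edge, 5 of them also at 0 on rapeseed.

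The spread of the folds narrowed with level. At level 100 to 300 the fold had an SD of 0.97 over 560 members, with 152 higher and 8 lower. At level 300 to 1000 the SD was 0.95 over 252 members, with 71 higher and 4 lower. At level 1000 or more it was 0.79 over 199 members, with 27 higher and 1 lower. These SDs include 13, 4 and 1 members listed at 0 on fishmeal, whose folds depend on the pseudocount. The quartiles were 0.36 and 1.04, 0.40 and 1.04, and 0.50 and 0.80 in the same order. The medians of these classes were 0.68, 0.69 and 0.67, so the bulk of the members was displaced alike at every level.

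Members that stood within 1.5-fold of each other in the other 3 libraries gave a measure of how far the strain F fishmeal library scattered. Their strain F rapeseed value is held near that of strain A by this choice, so their folds vary mainly with the fishmeal value. There were 470 of these steady members. Their fold in strain F had a median of 0.66, of which 72 were past 2-fold on the higher side and 0 on the lower side. The SD of the fold over steady IDs was 0.71 in the class of 100 to 300, 0.37 in that of 300 to 1000 and 0.24 in that of 1000 or more. The 0.71 includes 2 members listed at 0 on fishmeal, whose folds depend on the pseudocount. Without members listed at 0 in strain F the SD over all steady members was 0.40 in place of 0.57. The 5th and 95th percentiles by class were -0.08 and 1.43, 0.13 and 1.24, and 0.29 and 0.97. The share past 2-fold was 19.5%, 13.6% and 5.38% in the same order. Without the factors 11 of the 470 were past 2-fold, all higher. Among the other 541 members 178 were higher and 13 lower, a contrast that this choice partly sets. This scatter mixes counting error with any effect of fishmeal in strain F that the other libraries do not share, and the 2 cannot be told apart.

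**Figure D2:**
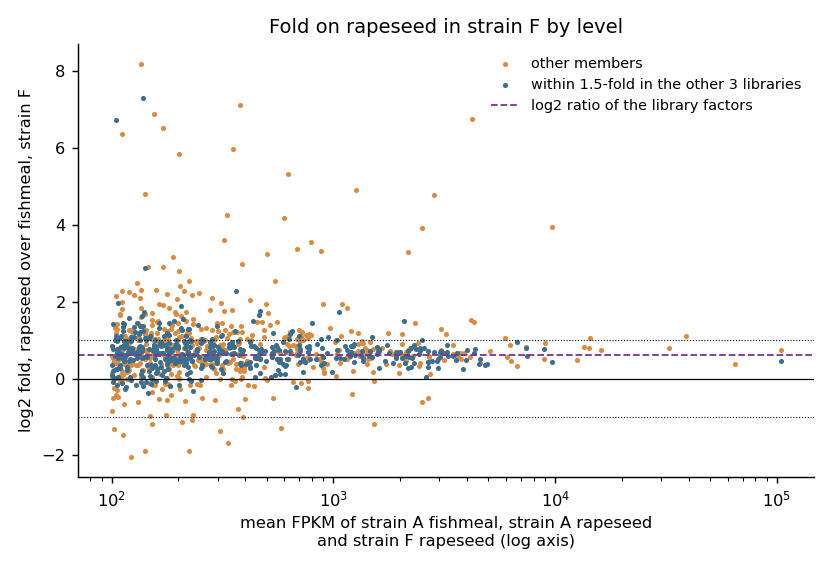
Diet fold in strain F (vertical, log2 of rapeseed over fishmeal) against the mean level in the other 3 libraries (horizontal, FPKM, log axis), 1 point per member; blue points are the 470 members within 1.5-fold of each other in those 3 libraries, dotted lines mark 2-fold, and the dashed line at 0.60 is what the library factors add. The cloud is centred near the dashed line and narrows with level, and the points far above it at level 1000 or more are few.

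The 10 members of level 10000 or more, the most abundant liver transcripts, all had a fold above 0 in strain F on the deposited scale, and 7 of the 10 had with the factors divided out. Together they made up 25.8% of the summed level on fishmeal and 28.1% on rapeseed. On the deposited scale c29002_g1 had the largest gain in level, from 48060 FPKM on fishmeal to 80325 on rapeseed in strain F, beside 102852 and 128483 FPKM for strain A. As a share of its strain F library it was 5.38% with fishmeal and 6.22% with rapeseed.

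c26954_g1 had the next largest gain on that scale, from 23485 to 50725 FPKM in strain F, beside 27666 and 37901 FPKM for strain A. Its share was 2.63% and 3.93%, and its log2 fold of 1.11 was 0.51 with the factors divided out. It was one of 2 members of this class past 2-fold on the deposited scale, and none was past it with the factors divided out. Without the factors the order turned, with a gain of 14106 FPKM for c26954_g1 and of 6911 FPKM for c29002_g1.

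c33686_g1 was the most abundant steady member, at 69132 and 94230 FPKM in strain F and at 104651 and 114029 FPKM in strain A. Its fold in strain F was 0.45 on the deposited scale and -0.15 with the factors divided out. c38533_g5, the next steady member by level, stood at 7763 and 10420 FPKM in strain F and at 8804 and 9821 FPKM in strain A. Its fold was 0.42 and, without the factors, -0.18. The direction of both is thus set by the scale.

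Among members above 0 in both strain F libraries, those with the largest higher folds were also 8.57 to 9.36 times higher on rapeseed in strain A. In strain F c31941_g1 went from 6.75 FPKM with fishmeal to 313 with rapeseed, and in strain A from 153 to 1415 FPKM. c9762_g1 stood at 18.8 and 597 FPKM in strain F, and at 308 and 2878 FPKM in strain A. Among the members of level 1000 or more c31047_g2 came next, at 46.9 and 1319 FPKM in strain F and at 749 and 6422 FPKM in strain A. The log2 folds of these IDs in strain F were 5.34, 4.92 and 4.78, and 4.79, 4.34 and 4.19 with the factors divided out. In each of them both strain F values lay below the strain A value on the same diet.

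These IDs belong to a group of 9 members that were above 0 in every library and past 8-fold on the higher side in both strains, a group that was formed after the values were seen. On rapeseed their levels stood in a narrow ratio, 3.73 to 5.48 times higher in strain A than in strain F (median 4.82). Their ratio of rapeseed to fishmeal in strain A was as narrow, from 8.57 to 11.4 (median 9.36). In strain F it was wider, from 9.83 to 46.3 (median 15.4), with fishmeal values from 6.75 to 294 FPKM. The choice of members past 8-fold cuts off the lower end of this ratio in both strains, so its range is partly set. The most abundant of the 9, c31047_g1, shares its component with c31047_g2. It went from 294 to 4543 FPKM in strain F, a ratio of 15.4, and from 2222 to 22253 FPKM in strain A, a ratio of 10.01. The ratios that span the strain F fishmeal library are those that varied most. The part of its many low values in that spread was not tested. Calls past 8-fold were not counted over all IDs, so the 9 are not read as a trait of the members.

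Of the 13 lower members, 6 stood higher in strain F than in strain A on fishmeal, and 10 stood lower in strain F than in strain A on rapeseed. In strain A the diet fold was below 0 in 5 and above 0 in 8, which turned to 9 and 4 without the factors. c33389_g2 had the largest lower fold, from 23.1 FPKM on fishmeal to 4.86 on rapeseed in strain F, beside 153 and 209 FPKM for strain A. Its log2 fold was -2.04, and -1.16 with a pseudocount of 10, since both strain F values are low.

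In strain F c32500_g3 went from 2474 FPKM with fishmeal to 670 with rapeseed, while strain A had a listed 0 and 3.10 FPKM. c32500_g2, of the same component, stood at 1539 and 419 FPKM in strain F and at 0.467 and 3.06 FPKM in strain A. They had the largest loss of level among the members on the deposited scale. Without the factors c33686_g1, from 98101 to 88113 FPKM, and c31665_g4, from 53402 to 45647, lost more. The ratios of rapeseed to fishmeal in strain F were 0.271 and 0.272 for c32500_g3 and c32500_g2. Both IDs of this component thus differed between the diets in nearly the same proportion.

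Of the 199 members of level 1000 or more, 1, c30471_g1, was at least 2-fold lower on the deposited scale, and 4 were with the factors divided out. c30471_g1 stood at 1517 and 671 FPKM in strain F and at 2575 and 1303 FPKM in strain A. Its log2 folds were -1.18 in strain F and -0.98 in strain A, so it was lower on rapeseed in both strains by similar amounts. With the factors divided out they were -1.78 and -1.41. c24824_g1 came next at that level, at 2692 and 1757 FPKM in strain F and at 2144 and 3593 FPKM in strain A. Its fold in strain F was -0.62, within 2-fold, and -1.22 with the factors divided out.

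**Figure D3:**
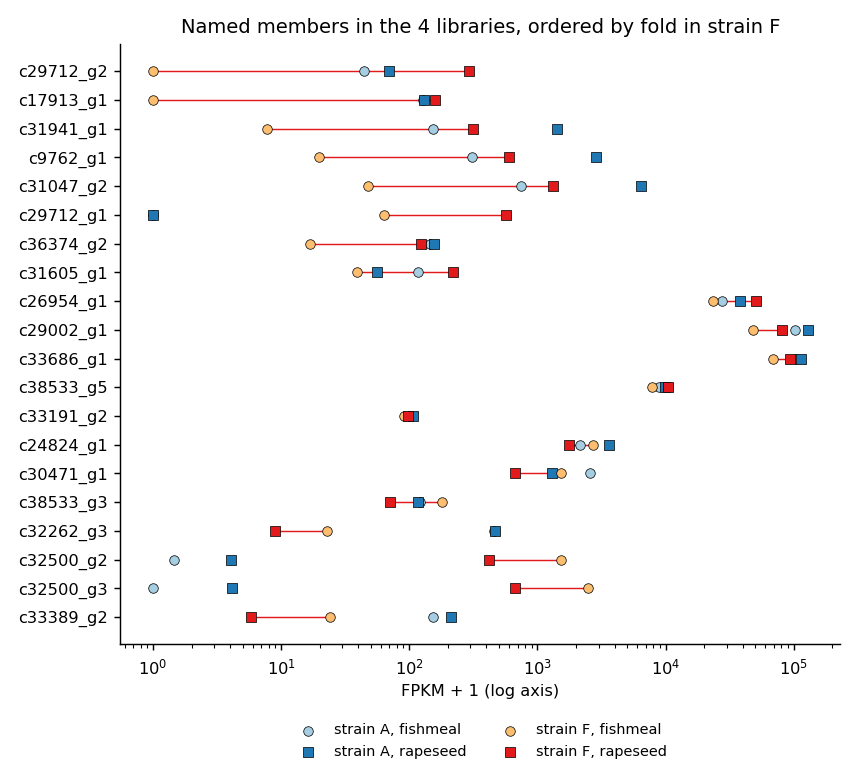
Level (horizontal, FPKM + 1, log axis) of 20 named members in each of the 4 libraries, circles for fishmeal and squares for rapeseed, with a line joining the strain F libraries, ordered by the fold in strain F from c33389_g2 (-2.04) to c29712_g2 (listed at 0 on fishmeal, drawn at 1). The IDs c31941_g1, c9762_g1 and c31047_g2 have both strains displaced the same way, while c32500_g2 and c32500_g3 are high in strain F and near the left edge in strain A.

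Of the 18 members listed at 0 on fishmeal in strain F, 13 were above 0 on rapeseed, from 0.278 to 294 FPKM with a median of 91.6, and 12 of these count among the 250 higher members. All 13 were above 0 in both strain A libraries. In none of them was the strain F rapeseed value by itself enough for the limit, so some level in strain A was required. In 1 of them, c29712_g2, the strain A mean was under 100 FPKM. It thus reached the limit only through its level in strain F on rapeseed, which is 1 side of the compared pair. c29712_g2 had a listed 0 and 294 FPKM on rapeseed, beside 43.4 and 68.5 FPKM for strain A. c17913_g1 had a listed 0 and 159 FPKM on rapeseed, beside 127 and 129 FPKM for strain A, so it was level in the 3 libraries other than strain F on fishmeal. A fold against a listed 0 is not given, since it would be set by the pseudocount. The other 5 were listed at 0 in both strain F libraries and stood between 136 and 481 FPKM in strain A. They could pass the limit only through strain A, so a high level there was set by the filter. No member was listed at 0 on rapeseed and above 0 on fishmeal in strain F.

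The diet pair of strain A shares no library with that of strain F, and gives the same members a second set of folds. In strain A the rule gave 139 higher and 18 lower members, with a median log2 fold of 0.37. That is 13.7% and 1.78% of the members, against 8.11% and 10.2% of all IDs. With the factors divided out it gave 80 and 48, or 7.91% and 4.75%, against 5.25% and 13.7% of all IDs. Both strains showed 71 members higher, 7.02% of the members, where 3.98% of all IDs were higher in both. The 71 are 51.1% of the strain A list of members, and over all IDs that share was 49.1%, nearly the same. They are 28.4% of the strain F list, against 9.91% over all IDs, where 20577 of the 22523 IDs of the strain F list are listed at 0 on fishmeal. Lower in both were 3 members, 0.297% of the members, against 0.584% of all IDs. Without the factors 33 were higher in both, 3.26% of the members against 2.50% of all IDs, and 13 were lower in both, 1.29% against 1.31%. The 33 were 41.2% of the strain A list and 41.8% of the strain F list, against 47.6% and 6.89% over all IDs, and the 13 were 27.1% and 38.2%, against 9.51% and 9.92%. As a share of the members, those lower in both were thus at or below the background on both scales. Across the 991 members above 0 in every library the folds of the strains had a Pearson r of 0.47 and a Spearman rho of 0.28, a description over IDs that share the same 4 libraries and their scale.

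The members furthest apart between the diets in strain A lay mostly in the same direction in strain F. Of the 28 members at least 8-fold higher in strain A, 24 were past 2-fold on the higher side in strain F, with a median log2 fold of 2.95. That median includes 4 members listed at 0 on fishmeal in strain F, whose folds depend on the pseudocount, and it was 2.25 over the other 24, of which 20 were past 2-fold. Of the 27 members 4- to 8-fold higher in strain A it was 13, with a median of 0.93, and of the 84 members 2- to 4-fold higher it was 34, with a median of 0.90. Without members listed at 0 in strain F these medians were 0.87 over 26 members and 0.88 over 82, nearly the same. Among the 686 members up to 2-fold higher in strain A 147 were higher in strain F, or 21.4%, and the median was 0.68. Over all members 24.7% were higher in strain F, and over all IDs 40.2%. The shares by strain A class were not counted over all IDs, so the shared direction cannot be called particular to the members. The limit counts both rapeseed values and no strain F fishmeal value, which favours members higher on rapeseed in both strains. Without the factors the order of the 2 top classes turned. The median was 1.54 over 16 members at least 8-fold higher in strain A and 2.66 over 21 members 4- to 8-fold higher. It was 0.23 over 43 members 2- to 4-fold higher and 0.11 over 357 members up to 2-fold higher. In the same order these classes hold 4, 1, 0 and 4 members listed at 0 in strain F, whose folds depend on the pseudocount. Among the 18 members at least 2-fold lower in strain A the median in strain F was -0.61, and 15 were below 0, against 85 of all 1011 members. Without the factors 17 of these 18 were below 0 in strain F, against 425 of all 1011 members. The lowest log2 fold of the 18 was -1.47 in strain F and -3.16 in strain A on the deposited scale. The 18 were chosen by their strain A fold, so the sizes are not comparable.

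**Figure D4:**
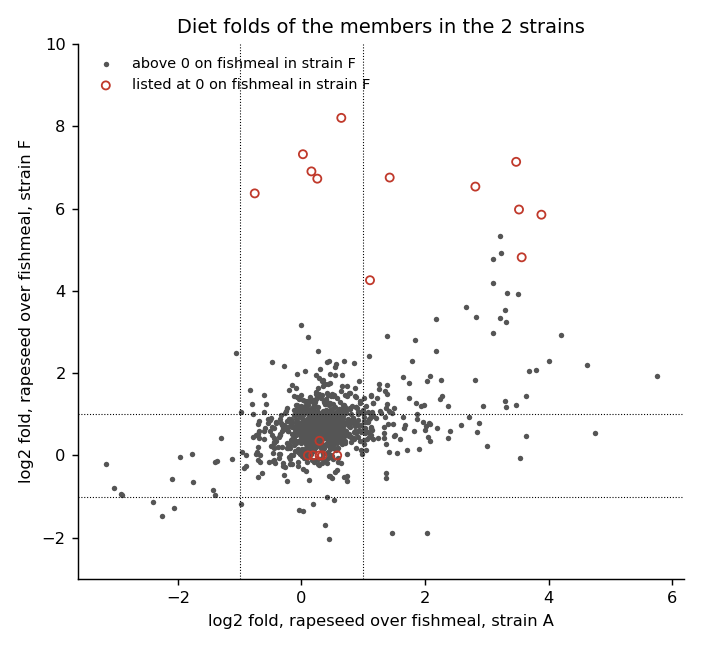
Diet fold (log2, rapeseed over fishmeal) in strain A (horizontal) and in strain F (vertical), 1 point per member, with dotted lines at 2-fold; red circles are the 18 members listed at 0 on fishmeal in strain F, whose vertical position depends on the pseudocount. In the upper right corner are 71 members higher in both strains, 3 lie in the lower left corner, and 1 and 2 in the opposite corners.

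Of the 24 members that were at least 8-fold higher in strain A and above 0 in every library, 15 were not 8-fold higher in strain F on the log2(value + 1) scale, which is the choice that sets them apart. Without the pseudocount they had ratios of rapeseed to fishmeal from 0.950 to 8.67 and a median of 2.72, against 8.20 to 54.8 with a median of 13.0 in strain A. In the reverse direction 3 members were past 8-fold on the higher side in strain F and 4.53 to 7.13 times higher in strain A. Over all IDs such calls were not counted, so the 15 and the 3 are not read as a trait of the members.

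Members that differed in strain F and not in strain A were sought among the 300 that were above 0 in both strain F libraries and within 1.2-fold in strain A. Of these 63 were at least 2-fold higher and 3 lower in strain F, with a median log2 fold of 0.63. These are 21% and 1%, below the 24.0% and 1.31% among all 993 members above 0 in strain F. Without the factors 465 members met the condition, and 21 were higher and 9 lower, 4.52% and 1.94% against 6.75% and 3.42%. A ratio of rapeseed to fishmeal near 1 in strain A thus did not go with more calls in strain F. c29712_g1 stood at 62.5 and 567 FPKM in strain F and was listed at 0 in both strain A libraries, so it was level in strain A only in the sense of not being seen there. It reached the limit only through strain F on rapeseed, so a high rapeseed value in strain F was set by the filter. c36374_g2 stood at 15.8 and 122 FPKM in strain F and at 145 and 156 FPKM in strain A. In it the fishmeal library of strain F stands apart from the other 3. On the lower side c32262_g3 stood at 21.99 and 7.95 FPKM in strain F against 455 and 464 in strain A, and c38533_g3 at 178 and 70.4 FPKM against 120 and 116. The log2 fold of c32262_g3 was -1.36, and -0.83 with a pseudocount of 10, which is within 2-fold. In c38533_g3 both strain F values lie away from strain A, one above and one below.

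The short lists of lower members, 13 in strain F and 18 in strain A, left room for few members in opposite directions. On the deposited scale 1 member was higher in strain F and lower in strain A, and 2 were the reverse. With the factors divided out the counts were 2 and 2. The share over all IDs was not counted, so these counts are not read as a trait of the members. The members below are those of the deposited scale. Of the members above 0 in every library, c31605_g1 was at least 2-fold higher in strain F, from 38.0 to 219 FPKM, and at least 2-fold lower in strain A, from 117 to 55.2 FPKM. c32500_g2 was the only one with the reverse pattern, and with c32500_g3, listed at 0 in strain A on fishmeal, there were 2 on the lower side. The strain A mean of c31605_g1, c32500_g2 and c32500_g3 was under 100 FPKM. They reached the limit only through strain F on rapeseed, a side of the compared pair. For c31605_g1 that is the high side, so its pattern is partly set by the filter. The strain A values of c32500_g2 and c32500_g3 were at most 3.10 FPKM, so their strain A folds depend on the pseudocount.

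IDs that share a c number are taken as parts of 1 assembly component, as the naming implies. The 1011 members came from 917 components, of which 82 held 2 or more, 176 members in all. No component held 1 member at least 2-fold higher and another at least 2-fold lower. Only 13 members were lower, which left little room for such a component, and with no filter on level 1035 components held both. In 7 components all members were higher and in 1, c32500, all were lower. In 20 some but not all were higher, and in 51 none had moved. In c35040, c32262 and c38533 some but not all were lower. For 105 pairs of members within a component and above 0 in both strain F libraries, the median gap between their log2 folds was 0.36 in strain F, against 0.47 for the 492423 pairs from different components. In strain A the gaps were 0.16 and 0.48. Members of a component thus lay closer to each other than to other members in both strains, and the nearness was less marked in strain F.

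The component c35040, singled out after its values were seen, had the most members, 5, and all had a fold below 0 in strain F and above 0 in strain A. c35040_g9 stood at 534 and 166 FPKM in strain F and at 366 and 475 in strain A. c35040_g8, the most abundant, stood at 351 and 298 FPKM in strain F and at 903 and 1101 in strain A. The log2 folds of the 5 ran from -1.68 to -0.24 in strain F and from 0.19 to 0.46 in strain A. With the factors divided out the strain F folds ran from -2.28 to -0.84 and the strain A folds from -0.24 to 0.04, so the direction in strain A is set by the scale for 4 of the 5.

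**Figure D5:**
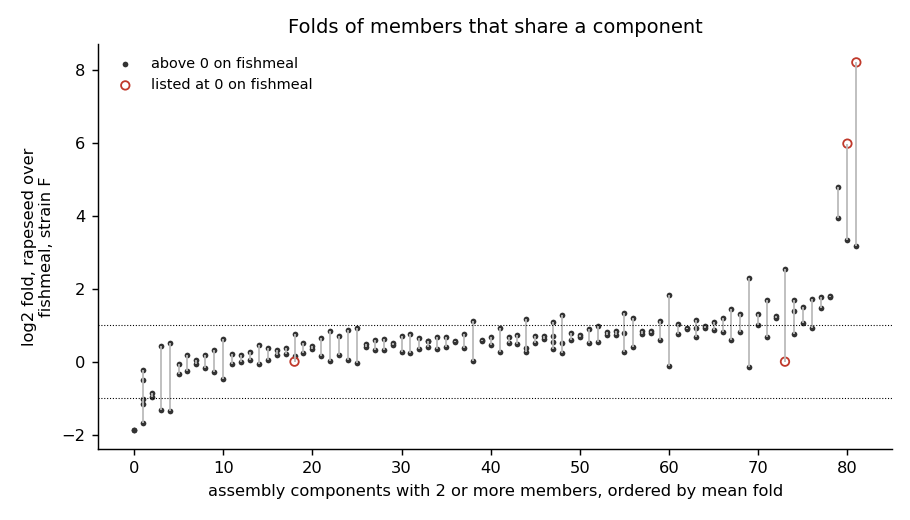
Diet fold in strain F (vertical, log2 of rapeseed over fishmeal) for the 176 members of the 82 components with 2 or more members, ordered by mean fold (horizontal); a line joins the members of a component, red circles are listed at 0 on fishmeal and dotted lines mark 2-fold. The widest gaps hold a member listed at 0, and no line crosses both dotted lines.

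The filter shaped the balance of the members. Of the 1011, 48 reached the limit only through their level in strain F on rapeseed, with a mean in strain A under 100 FPKM. Of these 19 were higher and 2 lower, 39.6% and 4.17%, and they could enter only by being high on rapeseed. The other 963 held 231 higher and 11 lower, 24.0% and 1.14%, with a median of 0.68. On the other side, 82 IDs stood at 100 FPKM or more in strain F on fishmeal and were no members. Of these 57 were at least 2-fold lower and 0 higher on rapeseed, where 8.86% of all IDs were lower. A high fishmeal value and a failed limit that counts the rapeseed value pick these 82, so that direction is largely set by the choice. A filter on all 4 libraries, which lets such IDs in, gave 25 lower in place of 13.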

How the data were processed

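Liver RNA of gibel carp was sequenced in 4 libraries. Per the labels' protocols, RNA was extracted from frozen tissue with Trizol for Illumina sequencing. The submitters' processing notes list RSEM 1.2.17 and Bowtie 1.0.1 without roles. The reference for alignment is not given in the sources here. The authors deposited 1 table per library. The deposited values were read as FPKM from the values themselves: those under 3 all lay within 0.0006 of whole multiples of a step, as for numbers of 2 decimals multiplied by 1 factor per library. The factors were 0.993 and 1.34 (strain A, fishmeal and rapeseed) and 0.705 and 1.07 (strain F). They had a product of 1.00, and the sums without them, 1.21e+06 to 1.27e+06, exceeded the fixed total of TPM. Depth is unknown.

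Folds were differences of log2(value + 1), which understate the change of low IDs, and were computed over the whole table. The limit was a mean of 100 in 3 libraries. With 1 library per group no test was made. At most 2 higher and 2 lower IDs were named per list: largest fold, listed at 0, level 1000 or more, largest difference in level, within 1.2-fold in strain A, opposite strains, nearest the limit, and most abundant steady members. c31047_g1, c35040_g8 and c35040_g9 were named after their values were seen. Members and lists were chosen with earlier results of these data known. Alternatives changed the pseudocount (0.1 and 10), the filter and the scale. The lists of liver and cell type genes could not be applied without gene names. The functions were tested on simulated data. Python 3.11.15, numpy 2.4.6, pandas 2.3.3 and matplotlib 3.10.9 were used.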

Additional observations from a re-analysis of the deposited data

Results flagged for a closer look

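Of the named members, 3 had differences of at least 2-fold in opposite directions in the strains. Subtracting the strain A log2 fold from the strain F one gave 3.56 for c31605_g1, -3.34 for c32500_g2 and -3.92 for c32500_g3. The difference was not tested, since there is 1 library per group, and for c32500_g3 it meets a listed 0 in strain A on fishmeal. For c32500_g2 it meets strain A values of 0.467 and 3.06 FPKM, so the strain A fold depends on the pseudocount. c31605_g1 and c32500_g2 were named for their opposite directions, so their place here follows from that choice. All of these IDs reached the limit only through strain F on rapeseed.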

How the results depend on the processing

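The split of the members depended on the scale and on the filter. The split in strain F was 250 higher and 13 lower with a median of 0.68. It became 79 and 34 (median 0.079) with the library factors divided out, 73 and 37 (median 0) with folds centred on the median of the members, and 84 and 30 (median 0.15) with libraries divided by their summed level, a setting chosen after seeing the data. On these scales the members higher in both strains were 33, 36 and 33 in place of 71, and those lower in both were 13, 13 and 12 in place of 3. With a mean of all 4 libraries at 100 or more, 25 were lower in strain F and 5 in both strains.

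At a mean of 1000 or more, 27 were higher, 1 lower, 1 listed at 0 on fishmeal, 14 higher in both and 0 lower in both, and the SD of the steady members was 0.24 in place of 0.57. With no filter, 22523 IDs were higher, 4963 lower, 36996 listed at 0, 2231 higher in both and 327 lower in both, the SD was 1.14 and 1035 components held 1 higher and 1 lower ID. Without the members listed at 0 in strain F, the number listed at 0 is 0 by construction. The members with a mean of strain A alone at 100 or more, pseudocounts of 0.1 and 10, and leaving out members listed at 0 in strain A, a setting also chosen after seeing the data, moved no count past 1.5 times and no median past 0.1. Folds of single low IDs did move with a pseudocount of 10, from -1.36 to -0.83 for c32262_g3 and from 5.34 to 4.27 for c31941_g1. With the factors divided out the folds of c33191_g2, c33686_g1 and c38533_g5 turned to -0.51, -0.15 and -0.18, because the factors add 0.60. No paired analysis was possible because each group has 1 library.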

Other observations

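A set of IDs outside the members was high in strain F on fishmeal and near 0 in strain A. With a limit chosen after seeing the data, at least 100 FPKM in strain F on fishmeal and under 5 FPKM in strain A on fishmeal, it held 51 IDs, of which 4 are members. Their median level in strain F was 150 FPKM with fishmeal and 40.9 with rapeseed, and 0.069 and 1.34 FPKM in strain A. In strain F 45 of the 51 were at least 2-fold lower on rapeseed, with the factors divided out as well, and 0 were higher. Over all IDs 8.86% were lower in strain F, and 13.2% with the factors divided out. The rule picks IDs that are high on fishmeal in strain F, so the direction of the 51 there is partly set by it. In strain A the direction is largely set too, since the rule asks for a low fishmeal value, 24 of the 51 are listed at 0 there, and with log2(value + 1) only 5 could have been 2-fold lower. With that limit, 40 of the 51 stood higher on rapeseed than on fishmeal in strain A, 26 by at least 2-fold, and 22 with the factors divided out. The set made up 1.82% of the summed level in strain F on fishmeal, 0.396% in strain F on rapeseed, 0.0109% in strain A on rapeseed and 0.00165% in strain A on fishmeal. c38711_g1 is an example, at 1175 and 258 FPKM in strain F and at 1.52 and 16.8 FPKM in strain A. Without gene names the set cannot be assigned to a process or a cell type.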
